A study of Mus musculus with 6 samples.

Results

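The Hox genes encode homeodomain transcription factors, and their levels were measured at E14.75 (days of embryonic development) in RNA from mouse diaphragm. Members were taken as the protein-coding genes with the mouse symbol Hox, a cluster letter from a to d and a paralog number, found by Ensembl identifier in the deposited lists. The mouse annotation holds 39 such genes, and 38 of the 23073 genes with a value in the files were members: 11 of the a cluster, 10 of the b cluster, 9 of the c cluster and 8 of the d cluster. Hoxd4 was not analysed here. The study compared muscle with and without Schwann cells, the glia of peripheral nerve, in 3 groups of 2 libraries each. The erbB3 wild-type libraries (named 5 and 6) and the erbB3 mutant libraries (1 and 2), labelled erbB3 WT and erbB3 KO, held total RNA of whole diaphragm. ErbB3 is the neuregulin receptor on which Schwann cells in nerve depend, and the knockout is constitutive. The Wnt1-Ribotag libraries (1 and 2), labelled Wnt1-Cre, Ribotag and erbB3 WT, held RNA precipitated with antibody against hemagglutinin, the tag that Cre puts on the ribosomal protein Rpl22. Wnt1-Cre marks neural crest, which gives rise to Schwann cells and to sensory and autonomic neurons, as well as part of the dorsal neural tube, so the tag is not limited to Schwann cells. Each Wnt1-Ribotag library came from diaphragms of a litter, pooled, and from far less RNA than a whole-muscle library. Per the study's methods, not all embryos of a litter carried Cre. Sex and the number of embryos in each whole-muscle library are not given in the sources used here.

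Hox genes lie in clusters and are numbered by paralog, from low numbers, used at anterior levels of the body axis, to high numbers, used at posterior levels. The order of the genes along the chromosome follows the anterior limit of their use, and a cell keeps the Hox code of the level at which it arose. The diaphragm draws on several levels: muscle precursors and the phrenic motor axons come from the cervical region, neural crest enters along the nerves, and connective tissue comes from the pleuroperitoneal folds. Hox5 genes are known for their part in the phrenic motor column and in lung, Hox6 to Hox9 genes for brachial and thoracic levels, and Hox10 to Hox13 genes for lumbar to caudal levels and the distal limb. In the GRCm38 build (GENCODE M21) the a cluster spans chr6:52155590-52260880 on the minus strand, the b cluster chr11:96194316-96368256, the c cluster chr15:102921103-103036852 and the d cluster chr2:74668310-74765142, the last 3 on the plus strand.

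Members share the homeobox, the stretch that codes for the DNA-binding homeodomain. The last 60 of its 180 bases, which code for the helix that reads DNA, are shown for 5 of the paralog 8 and 9 genes on which the comparisons turn and for Hoxa5, the most abundant member. They were read from the GENCODE transcripts, and capitals mark bases that differ from those of Hoxb8.
Hoxb8: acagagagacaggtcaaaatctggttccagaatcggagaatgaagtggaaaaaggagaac
Hoxc8: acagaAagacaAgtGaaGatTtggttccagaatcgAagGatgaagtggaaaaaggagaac
Hoxd8: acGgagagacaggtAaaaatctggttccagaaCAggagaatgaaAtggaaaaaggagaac
Hoxb9: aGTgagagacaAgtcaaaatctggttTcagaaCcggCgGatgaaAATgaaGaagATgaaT
Hoxc9: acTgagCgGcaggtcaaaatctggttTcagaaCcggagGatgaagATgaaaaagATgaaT
Hoxa5: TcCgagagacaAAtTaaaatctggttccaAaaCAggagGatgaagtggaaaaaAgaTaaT
In this stretch Hoxc8 and Hoxd8 differed from Hoxb8 at 7 and 5 bases, Hoxb9 at 14 and Hoxa5 at 12. Over the whole homeobox, genes of the same paralog number shared a median of 80.6% of bases (39 pairs, 67.2% to 93.9%) and genes of different number 60.6% (664 pairs, 46.1% to 88.9%). Such likeness matters for read counting, so the longest run of identical bases was sought between the transcripts of all 703 pairs of members. Apart from Hoxc5 and Hoxc10, whose annotated transcripts share 168 bases of exon, the longest run was 52 bases (Hoxa6 and Hoxb4), followed by 50 bases for Hoxb9 and Hoxc9. Hoxb8 and Hoxd8 shared at most 32. The values of Hoxc5 and Hoxc10 are uncertain for this reason, since reads of the shared exon can be given to either gene. Strand is not stated for the counting, so those of Hoxa3, Hoxa7, Hoxa11, Hoxb5 and Hoxd3 may hold reads of antisense transcripts that overlap their exons.

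Upstream sequence was at hand in RefSeq (GRCm38.p6) for 21 of the 38 members. The 250 bases before the transcription start are shown for Hoxb8 and Hoxa7, of the b and a clusters, both of which had lower values in both mutant libraries than in both wild-type libraries. Capitals mark matches on either strand to TTTATG, the site of the Cdx factors, and to TGATNNAT, the site of Hox proteins bound with PBC cofactors. The windows are chr11:96281655-96281904 on the plus strand and chr6:52218574-52218823 on the minus strand.
Hoxb8: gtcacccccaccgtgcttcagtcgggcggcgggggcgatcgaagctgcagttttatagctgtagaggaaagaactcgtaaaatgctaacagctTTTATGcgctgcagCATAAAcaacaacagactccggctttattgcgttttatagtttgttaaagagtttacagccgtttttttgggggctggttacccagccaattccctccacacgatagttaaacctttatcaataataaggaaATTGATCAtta
Hoxa7: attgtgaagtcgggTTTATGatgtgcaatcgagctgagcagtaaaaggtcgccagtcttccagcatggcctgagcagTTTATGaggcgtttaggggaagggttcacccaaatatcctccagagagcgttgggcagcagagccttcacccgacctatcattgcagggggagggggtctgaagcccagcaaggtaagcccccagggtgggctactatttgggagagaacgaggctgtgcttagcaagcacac
TTTATG was found in the windows of 4 of the 21 members (Hoxa7, Hoxb8, Hoxd3 and Hoxd11) and in 10.8% of all 32851 windows of that length. TGATNNAT was found in 4 of the 21 (Hoxa2, Hoxb1, Hoxb8 and Hoxd11) and in 7.68% of all windows. The homeodomain core TAATTA was found in 1 member and 4.84% of all windows, and TGACAG, the site of Meis proteins, in 2 members and 15.9%. CpG dinucleotides had a median of 13 per window in members, with a range of 3 to 35, and of 6 in all windows. These matches describe the letters of the windows only.

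Levels are given in RPKM, reads scaled to the length of the transcript and to the mapped reads of the library, which allows genes to be compared per length. The libraries held 100200000 to 230200000 mapped reads, as the values at the floor give them, between 17205 and 20349 genes stood above the floor that the files give to genes without reads, and 29 to 37 members did so. In the mutant libraries the Erbb3 transcript was at 21.5 and 11.9 RPKM, beside 16.5 and 15.8 in wild-type, so its level does not check the genotype. Sox10, a transcription factor of Schwann cells and other crest derivatives, was at 2.89 and 2.16 RPKM in wild-type, 0.00854 and 0.0178 in the mutant and 15.5 and 32.2 in Wnt1-Ribotag. The groups stood apart for Sox10 in the order that the labels give. Markers of other cell types are given beside the comparisons.

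Low and middle paralogs made up most Hox RNA in every library. Hoxa5 was the most abundant member throughout, at 24.4 and 27.0 RPKM in wild-type, 25.7 and 27.0 in the mutant and 17.7 and 16.8 in Wnt1-Ribotag. Both Wnt1-Ribotag values of Hoxa5 lay below all 4 whole-muscle values. Hoxb2 followed, at 10.8 to 13.6 RPKM over all 6 libraries, and Hoxc4, at 8.59 to 12.9. Hoxb2 overlapped between all groups, whereas both mutant values of Hoxc4 lay below both wild-type values. Hoxa2, which sets the identity of the second branchial arch in the head, was at 7.59 to 8.11 in whole muscle and at 10.6 and 9.27 in Wnt1-Ribotag. The remaining members among the 10 of highest mean were Hoxb3 (4.54 to 9.68 RPKM), Hoxc5 (5.38 to 8.28), Hoxc6 (5.41 to 7.93), Hoxb4 (5.02 to 7.31), Hoxd8 (2.64 to 15.4) and Hoxa3 (4.18 to 6.58). Below Hoxa5, neighbours in this order overlapped in their range over the libraries.

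The highest paralog expressed differed between clusters, and its order between groups depended on the mark. Taking 1 RPKM in both libraries of a group as the mark, the highest paralog of the a cluster was Hoxa7 in all 3 groups. In the b cluster it was Hoxb8 in wild-type, Hoxb6 in the mutant and Hoxb9 in Wnt1-Ribotag. The c cluster gave Hoxc8, Hoxc6 and Hoxc9 in the same order, and the d cluster Hoxd8, Hoxd8 and Hoxd9. The mark fell on either side of single libraries in the mutant, where Hoxb7 was at 0.653 and 1.07 RPKM and Hoxc8 at 0.366 and 1.69. It did so too for Hoxa9, at 0.913 and 1.09 RPKM in wild-type, 0.190 and 1.29 in the mutant and 0.919 and 1.60 in Wnt1-Ribotag, and for Hoxc10 in Wnt1-Ribotag, at 1.83 and 0.972, so these limits rest on single libraries. At a mark of 5 RPKM the a cluster reached Hoxa7 in wild-type and Hoxa5 in the mutant and in Wnt1-Ribotag. Wild-type and mutant then had the same limit in the b cluster (Hoxb4) and in the c cluster (Hoxc6), where Wnt1-Ribotag reached Hoxb9 and Hoxc8, and Hoxd8 passed in Wnt1-Ribotag only. Within the a cluster the level peaked at Hoxa5, whereas in the b cluster of wild-type muscle it declined from Hoxb2 onward apart from small rises at Hoxb6 and Hoxb8. Hoxb1 was at 0.00262 to 0.150 RPKM and Hoxd1 at 0.00437 to 0.216. The d cluster was low but for Hoxd8, a gene of thoracic levels, since Hoxd3 was at 0.637 to 1.61 and Hoxd9 at 0.162 to 1.66.

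**Figure D1:**
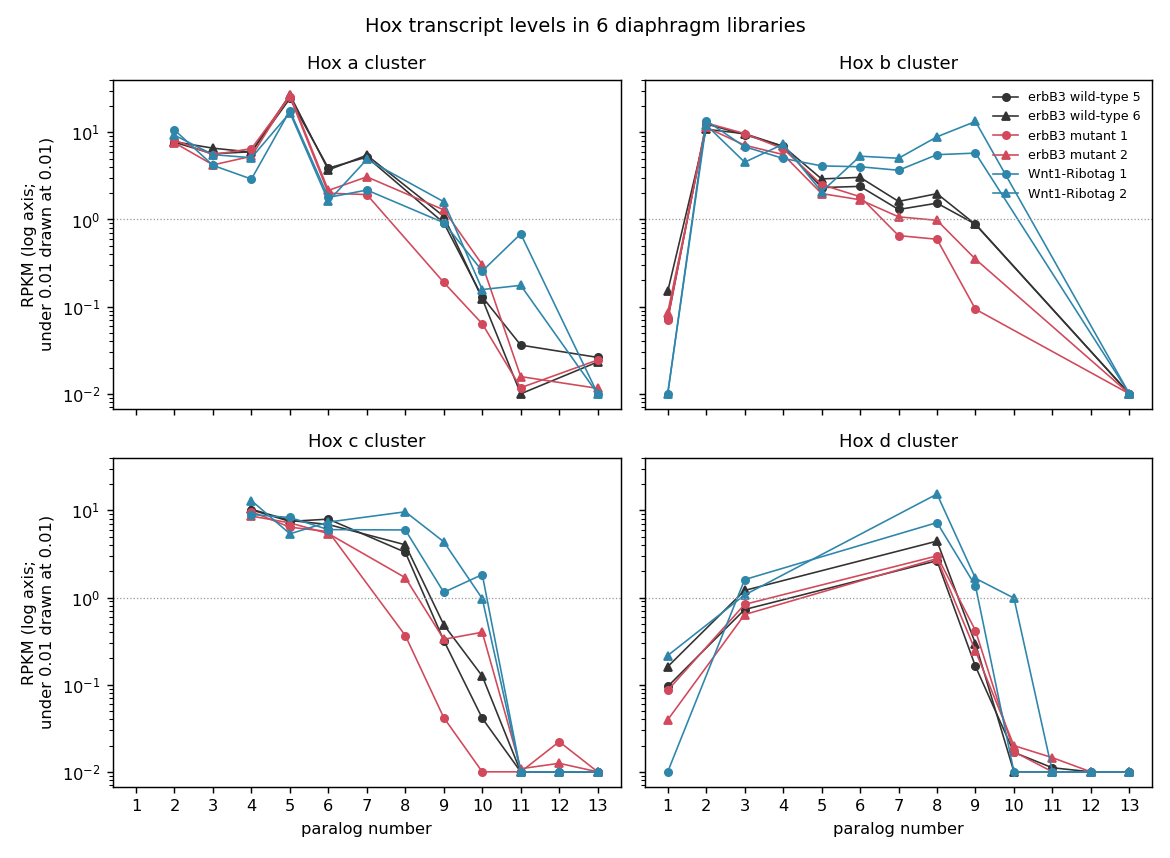
RPKM of each Hox gene reported (log axis) against its paralog number, 1 panel per cluster and 1 line per library; circles and triangles are the 2 libraries of a group, the dotted line is 1 RPKM and values under 0.01 are drawn at 0.01. Hoxa5 stands highest, and at Hoxb7, Hoxb8, Hoxb9 and Hoxc8 both Wnt1-Ribotag points lie above and both mutant points below the wild-type points.

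Of the 12 members of paralogs 10 to 13, few reached an appreciable level. Among the 9 of paralogs 11 to 13, 8 were under 0.1 RPKM in every library, and Hoxb13 was at the floor in all 6. The exception was Hoxa11, a gene of the lower limb segment, at 0.684 and 0.175 RPKM in Wnt1-Ribotag and 0.00225 to 0.0362 in whole muscle. Its antisense partner Hoxa11os was at 0.00398 and 0.479 in the same 2 Wnt1-Ribotag libraries, so the gene stood high in the library in which the antisense transcript was near its floor. Hoxd10 was at 0.985 RPKM in Wnt1-Ribotag 2 alone, and at 0.00455 in Wnt1-Ribotag 1 and 0.00243 to 0.02 in whole muscle. Hoxa10 was at 0.129 and 0.123 in wild-type, 0.0635 and 0.303 in the mutant and 0.256 and 0.157 in Wnt1-Ribotag, so that the mutant overlapped both other groups and Wnt1-Ribotag lay above wild-type. In all, 26 members were above the floor in every library and 15 were at 1 RPKM or more in every library.

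Levels were summed over paralogs 1 to 5, 6 to 9 and 10 to 13, a split chosen after the values were seen. Paralogs 1 to 5 (14 genes) summed to 95.1 and 98.9 RPKM in wild-type, 95.8 and 88.3 in the mutant and 84.7 and 84.8 in Wnt1-Ribotag, both below all 4 whole-muscle sums. Paralogs 6 to 9 (12 genes) summed to 30.5 and 33.9 RPKM in wild-type, 16.8 and 21.1 in the mutant and 45.6 and 79.1 in Wnt1-Ribotag. Here the 3 groups did not overlap, and the Wnt1-Ribotag libraries differed from each other by more than those of the other groups. By single paralog number, both mutant sums lay below both wild-type sums at each of paralogs 6 to 9, while Wnt1-Ribotag lay above wild-type at paralogs 8 and 9 and overlapped it at 6 and 7. At paralog 6 Wnt1-Ribotag summed to 11.8 and 14.3 RPKM beside 14.2 and 13.6 in wild-type, and at paralog 7 to 5.85 and 9.92 beside 6.50 and 7.08. Paralogs 10 to 13 summed to 0.296 and 0.306 RPKM in wild-type, 0.165 and 0.795 in the mutant and 2.81 and 2.31 in Wnt1-Ribotag. The picture differed with the classes 1 to 3, 4 to 8 and 9 to 13. Paralogs 1 to 3 summed to 37.8 and 38.2 RPKM in wild-type, 38.5 and 32.6 in the mutant and 37.7 and 35.2 in Wnt1-Ribotag. Paralogs 4 to 8 summed to 85.4 and 91.8, 73.4 and 74.5, and 83.4 and 107.7 in the same order, so that here Wnt1-Ribotag overlapped wild-type and the mutant lay below both. Paralogs 9 to 13 summed to 2.58 and 3.05, 0.906 and 3.01, and 12 and 23.3, and here the whole-muscle groups overlapped and Wnt1-Ribotag lay above both. The mean paralog number, weighted by RPKM, was 4.56 ± 0.0793 in wild-type, 4.31 ± 0.197 in the mutant and 5.38 ± 0.394 in Wnt1-Ribotag (SD, n = 2 libraries each). All Hox genes together summed to 129.5 ± 5.10, 111.5 ± 1.84 and 149.6 ± 23.4 RPKM in the same order. No test of these sums was made, because 2 libraries against 2 cannot go below a two-sided p of 0.333 in an exact permutation test.

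**Figure D2:**
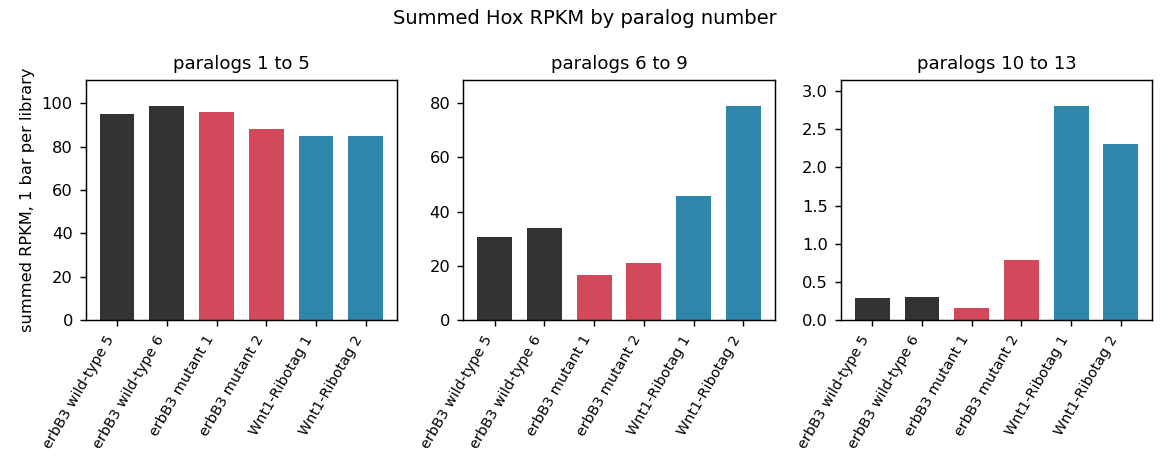
Summed RPKM of Hox paralogs 1 to 5, 6 to 9 and 10 to 13, 1 bar per library on a linear axis that starts at 0 in each panel. Paralogs 1 to 5 lie between 84.7 and 98.9 in all libraries, whereas paralogs 6 to 9 run from 16.8 in mutant 1 to 79.1 in Wnt1-Ribotag 2.

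The comparison of mutant with wild-type muscle asked what is lost or gained in muscle without Schwann cells. No member passed the test. Both mutant values lay below both wild-type values for 13 of 22 members with a mean of 0.5 RPKM in either group, beside 37.7% of the 14266 such genes, and with median-ratio scaling for 8 of the 22, beside 24.3%. Both lay above for 0 members, beside 12.6%, and with that scaling for Hoxa2 and Hoxa5, beside 23.0%. Among the 12 genes of paralogs 6 to 9, the class chosen after the values were seen, the groups overlapped for Hoxa9, Hoxc9, Hoxd8 and Hoxd9, and Hoxd9 was at 0.162 and 0.294 RPKM in wild-type and 0.417 and 0.244 in the mutant. Of the 38 members, 22 passed the filter of a mean of 0.5 RPKM over the 4 libraries compared and 0 were called by limma at an adjusted p under 0.05, beside 0.171% of the 14052 genes tested. Fitted differences on the scale of log2(RPKM + 0.5) were below 0 for 19 of the 22 and above 0 for 3, with a median of -0.22, beside -0.10 over all genes tested. The shift of -0.10 was thus general, and differences of members are to be read against it. The unadjusted p was under 0.05 for 8 of the 22, all lower in the mutant, which is 36.4% of them beside 12% of all genes. By the classes 1 to 3, 4 to 8 and 9 to 13, 0 of 6, 7 of 14 and 1 of 2 tested genes were among these 8, and the median differences were -0.20, -0.30 and -0.70. The 1 gene of the last class was Hoxb9, with a mutant mean of 0.222 RPKM, which passed the filter through wild-type alone, where it was high. In the split chosen after the values were seen, the medians were -0.17 for 12 genes of paralogs 1 to 5 and -0.63 for 10 of paralogs 6 to 9, which describes the choice and is no test of it.

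Hoxc8, which patterns the brachial and thoracic levels, showed the largest fitted difference. It was at 3.31 and 4.03 RPKM in wild-type and at 0.366 and 1.69 in the mutant (log2 difference -1.59, SE 0.38, limma adjusted p = 0.185). Hoxa7 was at 5.20 and 5.46 RPKM in wild-type and 1.93 and 3.08 in the mutant (-0.98, SE 0.20, limma adjusted p = 0.137). The neighbouring Hoxa6 was at 3.88 and 3.70 and at 2.00 and 2.16 (-0.73, SE 0.15, limma adjusted p = 0.137). In each of these genes both mutant libraries lay below both wild-type libraries. Hoxb9, a thoracic gene, was at 0.883 and 0.878 RPKM in wild-type and 0.0934 and 0.350 in the mutant (-0.96, SE 0.21, limma adjusted p = 0.154). Its fitted size turned on the pseudocount, and was -1.73 with a pseudocount of 0.1 and -0.63 with 1. Hoxb8 was at 1.54 and 1.98 and at 0.593 and 0.978 (-0.82, SE 0.20, limma adjusted p = 0.214). The mutant libraries differed between themselves in these genes, with mutant 1 the lowest of the 6 libraries for Hoxb7, Hoxb8, Hoxb9, Hoxc8 and Hoxc9. The size of the Hoxc8 difference turned on the library left out, and was -0.92 without mutant 1 (limma adjusted p = 0.0724) and -2.26 without mutant 2 (0.0451), where it was the 1 member called, while its adjusted p ran from 0.0451 to 0.895 over the 12 alternatives.

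Among members with a mean of 0.5 RPKM in either group, only Hoxb9 was at least 2-fold lower in all 4 pairs of libraries (1.02% of all such genes), and 0 were 2-fold higher (0.0981%). Hoxb9 entered this count through wild-type alone. Below that mean, Hoxc12 and Hoxd10 were higher in the mutant without overlap, and Hoxc13, Hoxd1 and Hoxd12 lower, with 0 of them 2-fold apart in all pairs. All of these were at the floor in at least 1 of the libraries of the series, where the value follows depth. Hoxc12, Hoxc13, Hoxd10 and Hoxd12 were at 0.0222 RPKM or less in whole muscle, so their order is not read as a difference in level. Among the 12 tested genes of paralogs 1 to 5, fitted differences ran from -0.31 (Hoxa3) to 0.05 (Hoxb2). Those of Hoxa5, Hoxb2, Hoxa2 and Hoxa4 were the nearest to 0, between -0.02 and 0.05. Hoxa9 was at 0.913 and 1.09 RPKM in wild-type and 0.190 and 1.29 in the mutant, so here the groups overlapped.

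The comparison of Wnt1-Ribotag with mutant RNA set the precipitated RNA against total RNA of muscle that lacks Schwann cells. In the b cluster, Hoxb8 and Hoxb9 were higher in Wnt1-Ribotag, 2 of the 25 that passed the filter, beside 1.19% of all 14325 genes tested. Hoxb9 was at 5.77 and 13.3 RPKM in Wnt1-Ribotag and 0.0934 and 0.350 in the mutant (log2 difference 3.71, SE 0.44, limma adjusted p = 0.0198). With a mutant mean of 0.222 RPKM, Hoxb9 passed the filter through Wnt1-Ribotag alone, where it was high. Hoxb8 was at 5.54 and 8.89 RPKM and at 0.593 and 0.978 (2.57, SE 0.34, limma adjusted p = 0.0265). Higher values in both Wnt1-Ribotag libraries than in both mutant libraries were thus seen with wide gaps for both genes. The Hoxb9 call was lost with no filter on low values only (adjusted p 0.113, range over 13 alternatives 2.97e-05 to 0.113). The Hoxb8 call was lost with no filter (0.121), with quantile normalization (0.0536) and without mutant 1 (0.0558).

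Members that missed the threshold lay mainly on the same side. Hoxb7 was at 3.67 and 5.04 RPKM in Wnt1-Ribotag and 0.653 and 1.07 in the mutant (1.83, SE 0.32, limma adjusted p = 0.0601). Hoxc8 was at 5.96 and 9.63 RPKM and at 0.366 and 1.69 (2.55, SE 0.48, limma adjusted p = 0.0728), and Hoxd8 at 7.24 and 15.4 and at 3.0 and 2.80 (1.71, SE 0.36, limma adjusted p = 0.0978). In all of them the groups did not overlap. Hoxb6 was at 4.03 and 5.32 RPKM in Wnt1-Ribotag and 1.83 and 1.68 in the mutant. Hoxc9 was at 1.15 and 4.36 and at 0.0418 and 0.332, and Hoxd9 at 1.36 and 1.66 and at 0.417 and 0.244. The same 2 libraries had 1.83 and 0.972 RPKM of Hoxc10, a lumbar gene, where mutant 1 was at the floor and mutant 2 at 0.400. Together with Hoxb7, Hoxb8, Hoxb9, Hoxc8 and Hoxd8, these are the 9 members with a mean of 0.5 RPKM in either group that were at least 2-fold higher in all 4 pairs, beside 5.33% of the 14815 genes counted. Hoxb9, Hoxc9, Hoxc10 and Hoxd9 had mutant means of 0.222, 0.187, 0.202 and 0.330 RPKM, so they entered this count through Wnt1-Ribotag alone, where they were high, and had to differ. None with such a mean was 2-fold lower in all pairs, beside 1.86%. Below that mean, Hoxa11 was 2-fold higher in all pairs, and Hoxb1 and Hoxa13, both at 0.150 RPKM or less in every library, were 2-fold lower.

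Fitted differences from the mutant were above 0 for 18 of the 25 tested members and below 0 for 7, with a median of 0.34 beside 0.04 over all genes. In 10 of the 25 the unadjusted p was under 0.05, 9 higher and 1 lower, which is 40.0% beside 19.3% of all genes. Among members with a mean of 0.5 RPKM in either group, non-overlapping groups were counted for 12 higher (29.9% of all such genes) and 4 lower (24.5%), which were Hoxa4, Hoxa5, Hoxa6 and Hoxb3. Below that mean, Hoxa11 was higher without overlap and Hoxa13, Hoxb1 and Hoxc12 lower. Each of the lower ones was at the floor in at least 1 library, where the value follows depth. By the classes 1 to 3, 4 to 8 and 9 to 13, the median difference was 0.04 over 6 tested genes, 0.29 over 14 (10 above 0 and 4 below) and 1.46 over 5. In the split chosen after the values were seen it was 0.00335 over 12 genes of paralogs 1 to 5 and 1.49 over 12 of paralogs 6 to 9. Members low in one group passed the filter through the other, so the counts and medians cover only the genes that passed.

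The comparison of Wnt1-Ribotag with wild-type muscle set the precipitated RNA against total RNA of whole diaphragm. The wild-type libraries came from other embryos and a different cross, so they are not the input of the precipitates. Of the 25 tested members 0 were called, beside 0.00694% of the 14418 genes tested. At an unadjusted p under 0.05 there were 9 members higher and 3 lower, 48.0% of those tested, beside 19.5% of all genes. Hoxb9 was at 5.77 and 13.3 RPKM beside 0.883 and 0.878 (2.75, SE 0.41, limma adjusted p = 0.148), and Hoxb8 at 5.54 and 8.89 beside 1.54 and 1.98 (1.74, SE 0.29, limma adjusted p = 0.152). Hoxb7, at 3.67 and 5.04 beside 1.30 and 1.61, gave 1.30 (SE 0.26, limma adjusted p = 0.170). With Hoxc9, Hoxc10 and Hoxd9, these 3 make up the 6 members with a mean of 0.5 RPKM in either group that were at least 2-fold higher in all pairs, beside 2.95% of 14874 genes. Hoxc9, Hoxc10 and Hoxd9, with wild-type means of 0.404, 0.0833 and 0.228 RPKM, entered this count through Wnt1-Ribotag alone, where they were high. The same holds for their place among the 9 members higher at an unadjusted p under 0.05. Hoxa11, below that mean in both groups, was also at least 2-fold higher in all pairs. Hoxd8 and Hoxc8 were higher in both Wnt1-Ribotag libraries, but in the nearest pair by less than 2-fold.

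On the lower side, Hoxa6 was at 1.79 and 1.63 RPKM in Wnt1-Ribotag and 3.88 and 3.70 in wild-type (-0.96, SE 0.22, limma adjusted p = 0.174). It was the 1 member above that mean at least 2-fold lower in all pairs, beside 2.25% of all genes, and with median-ratio scaling 0 were, beside 1.90%. Hoxb1 and Hoxa13, below that mean, were also at least 2-fold lower in all pairs before scaling. Hoxb3 was at 6.83 and 4.54 beside 9.42 and 9.64 (-0.72, SE 0.24, limma adjusted p = 0.220), and Hoxa5 at 17.7 and 16.8 beside 24.4 and 27.0 (-0.56, SE 0.16, limma adjusted p = 0.199). The size of the Hoxb3 difference was -0.99 without Wnt1-Ribotag 1 and -0.45 without Wnt1-Ribotag 2. Hoxa3, Hoxa4 and Hoxa7 also had both Wnt1-Ribotag values below both wild-type values, which made 6 members above that mean lower without overlap, beside 31.2% of all genes. Higher without overlap were 10 such members, beside 23.2%, and of these Hoxc9, Hoxc10 and Hoxd9 reached that mean through Wnt1-Ribotag alone. Below that mean, Hoxa10 and Hoxa11 were higher without overlap, and Hoxa13, Hoxb1, Hoxc11, Hoxc13, Hoxd11 and Hoxd12 lower. Each of the lower ones was at the floor in at least 1 library, where the value follows depth. Hoxc11, Hoxc13, Hoxd11 and Hoxd12 were at 0.0111 RPKM or less in both groups, so their order is not read as a difference in level. The median difference was 0.15 over the 25 tested members and -0.05 over all genes. The comparisons with the mutant and with wild-type share the Wnt1-Ribotag libraries, so they are not independent of each other.

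**Figure D3:**
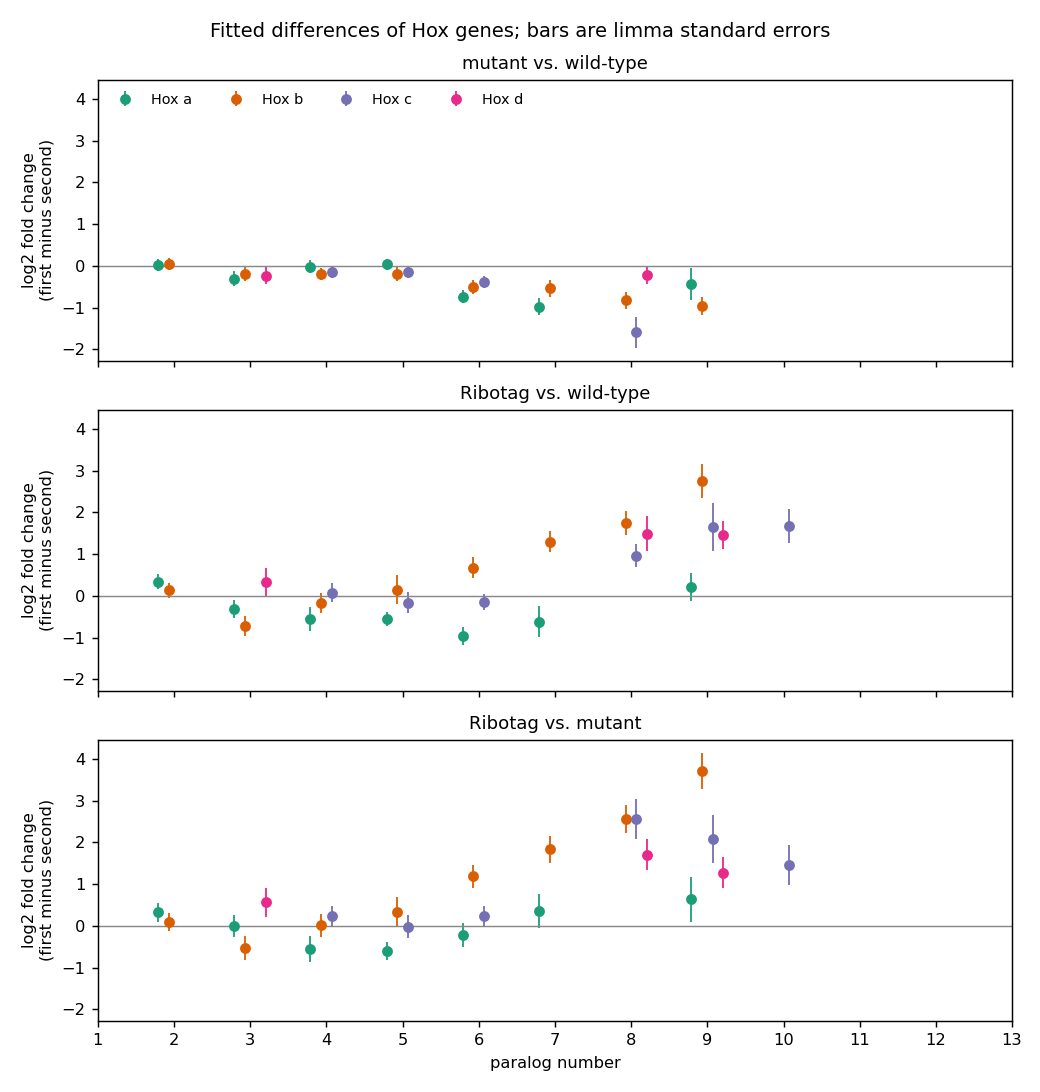
Fitted log2 difference (first group minus second, on log2(RPKM + 0.5)) of each tested Hox gene reported against paralog number, coloured by cluster, with limma standard errors. Hoxb9 reaches 3.71 and Hoxb8 2.57 for Wnt1-Ribotag against the mutant, the 2 called differences, and Hoxc8 -1.59 for mutant against wild-type.

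The clusters did not behave alike from paralog 6 to 9. In the a cluster (Hoxa6, Hoxa7 and Hoxa9) these genes summed to 9.995 and 10.3 RPKM in wild-type, 4.12 and 6.53 in the mutant and 4.89 and 8.11 in Wnt1-Ribotag. Both Wnt1-Ribotag sums were below wild-type, and they overlapped with those of the mutant. The b cluster genes summed to 6.12 and 7.51, 3.17 and 4.08, and 19.0 and 32.6 RPKM in the same order of groups. Those of the c cluster summed to 11.6 and 11.4, 6.12 and 7.43, and 13.1 and 21.3, and those of the d cluster to 2.81 and 4.73, 3.42 and 3.04, and 8.59 and 17.0. In the b, c and d clusters both Wnt1-Ribotag sums were above all whole-muscle sums. As a share of all Hox RNA, the a cluster held 44.5% ± 0.339 in wild-type, 46.7% ± 1.47 in the mutant and 30.1% ± 2.12 in Wnt1-Ribotag (SD, n = 2), and the d cluster 3.75% ± 1.18, 3.64% ± 0.327 and 9.65% ± 2.79. The weighted mean paralog number of the b cluster was 3.65 and 3.85 in wild-type, 3.29 and 3.47 in the mutant and 4.83 and 5.72 in Wnt1-Ribotag, whereas that of the a cluster was 4.22 to 4.50 in all 6 libraries.

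Markers of several cell types moved with these groups. In bulk tissue, fewer cells of a type and less RNA per cell cannot be told apart. The 10 Schwann lineage markers summed to 60.1 and 52.9 RPKM in wild-type, 47 and 25.7 in the mutant and 177 and 384 in Wnt1-Ribotag, with 3 called lower in the mutant than in wild-type and 7 called higher in Wnt1-Ribotag than in the mutant. The 7 general neuronal markers summed to 10.5 and 56.3, 4.85 and 8.78, and 104 and 471 RPKM, with 2 (Tubb3 and Stmn2) called higher in Wnt1-Ribotag than in the mutant. The neuronal sum was thus higher in wild-type 6 than in wild-type 5, while paralogs 6 to 9 were at 33.9 and 30.5 RPKM in these libraries. Markers of sensory neurons of the dorsal root ganglion summed to 3.78 and 13.3, 1.86 and 2.48, and 14.2 and 57.1 RPKM. In Wnt1-Ribotag most of that sum was Prph, at 1.99 and 11.3, 0.615 and 1.39, and 11.7 and 51.4 RPKM, the 1 gene of the list called higher in Wnt1-Ribotag than in the mutant (limma adjusted p = 0.047). Pou4f1 of the same list was at 0.341 to 0.575 in all libraries. Of the spinal motor neuron markers, Mnx1, Lhx3 and Olig2 were at 0.0145 RPKM or less in every library and Chat at 0.0564 or less. The other 2 measured were Isl1, which sensory neurons also express, at 3.0 and 6.6 RPKM in wild-type, 4.12 and 3.34 in the mutant and 7.08 and 18.5 in Wnt1-Ribotag, and Slc5a7, at 0.350 to 1.24, and neither was called in any comparison.

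Liver RNA varied as well, with 10 liver markers at 530 and 163 RPKM in wild-type, 20.7 and 12.9 in the mutant and 289 and 192 in Wnt1-Ribotag. Of them, 3 were called lower in the mutant than in wild-type, and 7 higher in Wnt1-Ribotag than in the mutant. The list was highest in wild-type 5, which was below wild-type 6 for the sum of paralogs 6 to 9. Skeletal muscle markers summed to 1971 and 1652, 3200 and 1668, and 2134 and 1881 RPKM, so that mutant 1, with the lowest high-paralog sum, was the highest for muscle. The Wnt1-Ribotag sums for muscle overlapped those of wild-type, so the precipitates held muscle RNA and not only RNA of the crest lineage. Connective tissue and mesothelial markers summed to 1407 and 1368, 1460 and 1137, and 1010 and 846, with both Wnt1-Ribotag libraries the lowest. Erythroid markers summed to 2252 to 5485 RPKM, endothelial markers to 29.3 to 44.4 and macrophage markers to 27.9 to 53.2 over the 6 libraries. The part of these cell types in the Hox differences was not tested.

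**Figure D4:**
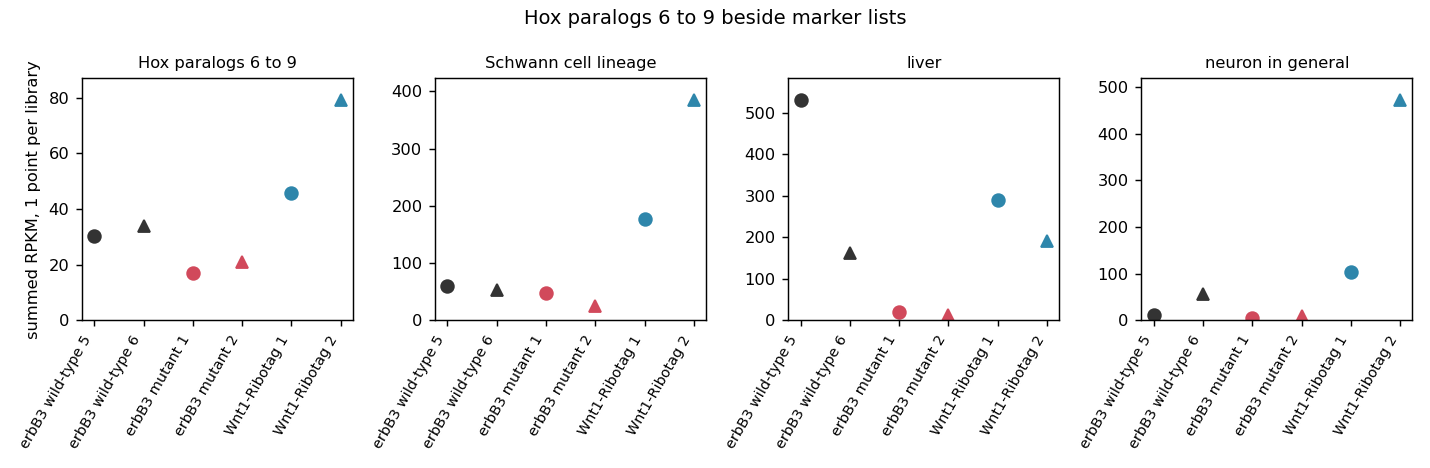
Summed RPKM of Hox paralogs 6 to 9 and of 3 marker lists in each library (1 point per library, linear axes from 0, colours and symbols by group and library). The Hox sum runs 16.8 and 21.1 in the mutant, 30.5 and 33.9 in wild-type and 45.6 and 79.1 in Wnt1-Ribotag, while the liver list is highest in wild-type 5, at 530.

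Partners and regulators of Hox proteins were examined as lists. The list of TALE homeodomain genes held 9 Pbx, Meis and Pknox genes, whose proteins bind DNA with Hox proteins, and Tgif1, a related repressor. All 10 were tested and 0 called in any comparison. Pbx2 was the highest, at 22.5 to 33.3 RPKM, followed by Meis2 at 19.7 to 26.1 and Meis1 at 18.0 to 25.9. In the mutant all 10 had fitted differences below 0 from wild-type, with a median of -0.23 beside -0.10 for all genes. Of 8 upstream axial regulators, 3 passed the filter and 0 were called in any comparison. Gdf11, the ligand that promotes the step to high paralogs in the tail bud and cord, was at 9.19 and 8.67 RPKM in Wnt1-Ribotag, 4.66 and 5.50 in wild-type and 3.87 and 2.87 in the mutant. Its groups did not overlap, and the difference between Wnt1-Ribotag and mutant was 1.30 (limma adjusted p = 0.0763). Cdx1, Cdx2 and Cdx4, which activate central Hox genes in the early embryo, were at 0.0120 RPKM or less in every library.

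Of 16 genes of the retinoic acid pathway, which sets anterior Hox limits in the early embryo, 15 were tested and 0 called in any comparison. Crabp2, a carrier of retinoic acid, was at 26.6 to 57.8 RPKM and Crabp1 at 20.5 to 55.9. All 15 had fitted differences below 0 for the mutant against wild-type (median -0.28, beside the general shift of -0.10 over all genes). Polycomb complexes keep silent Hox genes repressed, and 20 of 21 listed subunits were tested with 0 called. Rbbp7 was at 78.0 to 151 RPKM, Rbbp4 at 56.5 to 86.0 and Rnf2, a ubiquitin ligase of the complex, at 25.8 to 32.3. Trithorax proteins act against them, and all 9 listed were tested with 0 called, Dpy30 at 18.1 to 45.2 RPKM, Ash2l at 20.3 to 27.6 and Wdr5 at 18.4 to 25.2. Medians of the Polycomb list were -0.16 for mutant against wild-type, -0.05 for Wnt1-Ribotag against wild-type and 0.15 for Wnt1-Ribotag against the mutant, and those of the trithorax list -0.36, -0.34 and -0.14, beside -0.10, -0.05 and 0.04 over all genes.

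Other transcripts of the clusters were measured for 14 of 20 listed, and 0 were called. Hoxaas2, antisense to Hoxa3, was at 6.81 and 7.14 RPKM in Wnt1-Ribotag and at 3.55 to 4.47 in whole muscle, so the groups did not overlap. Hoxaas3, which overlaps exons of Hoxa3 and Hoxa7, was at 3.15 and 3.14 in wild-type, 2.00 and 2.70 in the mutant and 2.66 and 2.96 in Wnt1-Ribotag, the same order of group means as for Hoxa7. Hoxd3os1 was at 0.803 and 1.44 RPKM in Wnt1-Ribotag and 0.305 to 0.393 in whole muscle. Hoxb5os was at 0.927 to 1.16 except in Wnt1-Ribotag 2, where it was at 0.165. Hotair and Hottip, long noncoding RNAs of the posterior c and a clusters, were at 0.00677 RPKM or less. Of the 6 microRNA hairpins listed, 3 (Mir10b, Mir196a-2 and Mir196b) were at the floor in all of these poly(A) libraries.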

How the data were processed

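Per the labels and the study's methods, polyadenylated RNA of whole diaphragm or of anti-hemagglutinin precipitates was sequenced, and the submitters' processing notes name STAR and the mm9 build. The authors deposited RPKM values per Ensembl gene and a flag, a whole-number mark, which is 1 for genes at a floor set by length and depth. The deposited flag column was used only to mark genes at the floor. Counts were not used here, so limma 3.58.1 (R 4.3.3, trend) was run on log2(RPKM + 0.5) for genes with a mean of 0.5 RPKM or more over the 4 libraries compared, with Benjamini-Hochberg adjustment at 0.05. The test was checked on simulated data. Identifiers were joined to GENCODE M21 (GRCm38), a build other than that of the files: 21583 matched and 1490 did not. Positions are those of GRCm38. Members, lists and tests were chosen with earlier results of these data known. Named genes were the 10 of highest mean RPKM, those past the threshold, and those at least 2-fold apart in all 4 pairs with a mean of 0.5 RPKM in a group. Beyond that rule, members with an unadjusted p under 0.05 or at a cluster limit were named after their values were seen. A few genes and sequences are not reported here. Depth was derived from the floors. The series' design calls the 2 libraries of a group biological replicates, and p-values measure the spread between them only. Alternatives covered the pseudocount, filter, scaling, prior, libraries fitted and each library left out.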

Additional observations from a re-analysis of the deposited data

How the results depend on the processing

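Over 30 fitted differences of named Hox genes and 365 values under alternatives, none changed sign, 313 stayed on the same side of the threshold, 48 came to pass it and 4 ceased to. Calls of Hox genes for Wnt1-Ribotag against the mutant numbered 2, and 0 with no filter, 1 with quantile normalization, 6 with all 6 libraries in the fit and 1 to 11 leaving out a library (1 without mutant 1, 9 without Wnt1-Ribotag 1, 11 without Wnt1-Ribotag 2). The replicate block gave 6 calls, and 842 over all genes beside 171; the labels give the groups the same numbers, but same-numbered deviations correlated at 0.168 in 2 pairs and nothing shows that the numbers pair the samples. For Wnt1-Ribotag against wild-type there were 0 calls, 1 with all 6 libraries and 0 to 15 leaving out a library (12 without Wnt1-Ribotag 1, 15 without Wnt1-Ribotag 2). For mutant against wild-type there were 0, and 0 to 1 leaving out a library. Over all genes, calls for Wnt1-Ribotag against wild-type were 1, and 138 with all 6 libraries, 4404 without Wnt1-Ribotag 1 and 5857 without Wnt1-Ribotag 2; against the mutant 171, and 692, 2555 and 3844. A lone library is assumed to vary like the other group, and the cause of these differences was not tested. The median difference of tested Hox genes for mutant against wild-type was -0.071 with quantile normalization and -0.364 to -0.178 leaving out a library. For Wnt1-Ribotag against wild-type it was -0.000341 with no filter, which tests 38 members, and 0.0926 to 0.288 leaving out a library. Against the mutant it was 0.0923 with no filter, 0.16 with quantile normalization and 0.277 to 0.483 leaving out a library. Median-ratio scaling, applied to counts of pairs after seeing the data, gave 8 lower and 2 higher members without overlap for mutant against wild-type, beside 24.3% and 23.0% of all genes, and 0 at least 2-fold lower for Wnt1-Ribotag against wild-type, beside 1.90%. It moved the summed Hox RPKM of the mutant from 111.5 to 115.7.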
